A study of Mus musculus with 6 samples.

Results

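The 10 TNF receptor superfamily genes Tnfrsf1a, Tnfrsf1b, Cd40, Fas, Tnfrsf9, Tnfrsf11a, Tnfrsf12a, Tnfrsf21, Tnfrsf26 and Ltbr were examined in primary microglia (PM). They were taken by symbol from the 24411 genes of the count tables, and all 10 were found. PM were shaken off mixed glial cultures of pooled whole brains of 3-day-old ICR mice, so no library belongs to a single animal. They were exposed for 4 h to GSK-J4 (10 μM) in 3 libraries, or to GSK-J4 (10 μM) and lipopolysaccharide (LPS, 10 ng/ml) in 3 libraries. GSK-J4 is an inhibitor of the H3K27 demethylase JMJD3, and LPS is the bacterial ligand of TLR4. Both groups carried GSK-J4, and untreated and LPS-only PM were not analysed here, so each comparison measures the response to LPS in cells that had the inhibitor and says nothing of what the inhibitor did.

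Receptors of this superfamily are transmembrane proteins, or decoys, that bind trimeric ligands of the TNF family through cysteine-rich repeats. Those with a death domain, such as the TNF receptor Tnfrsf1a and Fas, can recruit TRADD or FADD and lead to NF-κB signalling or to caspase-8 and cell death. Those without one, such as the second TNF receptor Tnfrsf1b and Cd40, bind TRAF adaptors and feed the canonical or the alternative NF-κB pathway. In brain microglia, Tnfrsf1b and Cd40 are known as receptors that the cells carry or gain on activation, and Cd40 is the receptor through which T cells act on antigen-presenting cells.

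Promoter sequences are shown for the genes below whose levels differed most between the groups and for which RefSeq (GRCm38.p6, the assembly that mm10 names) gives a start site that the GENCODE annotation of mm10 places within 20 bases. Windows were found for 8 of the 10 genes, with 9 windows in all. The bases before the start site are printed 5′ to 3′ on the strand of the gene, and capitals mark matches to the motifs searched on both strands, which here are the GC box GGGCGG, the AP-1 site TGANTCA and the interferon response element (GAAA, any 2 bases, then GAAA). They come from chr4:145246871-145247120 on the minus strand for Tnfrsf1b, from chr17:23677469-23677699 on the minus strand for Tnfrsf12a, from chr19:34290409-34290658 on the plus strand for Fas and from chr17:43016305-43016554 on the plus strand for Tnfrsf21.
Tnfrsf1b: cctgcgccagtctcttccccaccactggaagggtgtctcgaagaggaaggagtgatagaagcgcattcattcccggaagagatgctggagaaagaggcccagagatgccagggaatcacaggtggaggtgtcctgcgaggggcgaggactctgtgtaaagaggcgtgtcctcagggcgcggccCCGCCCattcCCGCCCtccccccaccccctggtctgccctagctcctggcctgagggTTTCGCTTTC
Tnfrsf12a: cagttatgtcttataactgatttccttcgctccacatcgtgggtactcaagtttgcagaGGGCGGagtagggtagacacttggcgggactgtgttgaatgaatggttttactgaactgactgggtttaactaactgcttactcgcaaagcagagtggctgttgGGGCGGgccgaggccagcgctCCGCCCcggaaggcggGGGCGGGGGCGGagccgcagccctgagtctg
Fas: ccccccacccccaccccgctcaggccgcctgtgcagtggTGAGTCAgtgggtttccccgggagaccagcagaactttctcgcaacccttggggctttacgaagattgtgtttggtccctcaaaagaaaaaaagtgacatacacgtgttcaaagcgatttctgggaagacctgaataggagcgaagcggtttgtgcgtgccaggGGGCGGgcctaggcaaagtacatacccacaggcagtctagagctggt
Tnfrsf21: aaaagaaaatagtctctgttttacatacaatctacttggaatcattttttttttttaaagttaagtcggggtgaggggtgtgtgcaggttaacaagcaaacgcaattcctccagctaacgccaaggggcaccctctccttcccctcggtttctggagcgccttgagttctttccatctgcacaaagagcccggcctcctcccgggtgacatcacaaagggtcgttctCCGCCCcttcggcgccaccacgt

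In the 250 bases before the start site, the GC box was found in 7 of the 9 windows, against 32.74% of all 32851 RefSeq mouse windows of that length. In Tnfrsf12a, 2 of the GC boxes lie directly next to each other. The interferon response element was found in 1 of the 9 windows, in the last 10 bases before the start of Tnfrsf1b, and in 2.977% of all windows. The AP-1 site, which reads as the same motif on both strands, was found in 2 of the 9 windows, in Fas and Tnfrsf9, and in 6.749% of all. The κB site was found in 1 window, of Tnfrsf9, and in 7.251% of all, and the CCAAT box CCAAT in 1 window, of Tnfrsf9, and in 33.85% of all. All windows were set by RefSeq start sites. For Tnfrsf9 and Tnfrsf1a these sites lie downstream of the GENCODE start, and the windows lie inside the gene as GENCODE places it. A match is a description of letters in a short window, and a window without a match says nothing of the factor.

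The libraries held 2597505 to 3472716 counts on genes, and levels are given as CPM, counts relative to library size after the TMM factors of edgeR (0.821 to 1.31) were applied. In a library, 3 counts were worth 0.670 to 1.23 CPM, a floor that covers counting error only. Of the counts, 25.6% ± 5.88 (SD, n = 3) in GSK-J4 and 47.1% ± 1.15 with LPS fell on Rn45s, the precursor of ribosomal RNA, so other genes were counted less deeply with LPS. Of 12 microglial markers all were detected, among them Cx3cr1, Csf1r, P2ry12 and Trem2, with a summed level of 3649 to 3779 CPM in GSK-J4 and 2987 to 3007 CPM in LPS + GSK-J4. Markers of other brain cells were detected as well. Those of astrocytes summed to 60.3 to 65.7 CPM and 146 to 180 CPM in the same order, those of the oligodendrocyte lineage to 127 to 155 and 240 to 271 CPM, and those of neurons to 6.03 to 7.04 and 14.0 to 16.3 CPM. By the test used for all genes, 2 of the 12 microglial markers fell (Cx3cr1 and Csf1r), against 5.46% of all genes tested. Of the markers tested, 4 of 8 for astrocytes (Gfap among them) and 4 of 6 for the oligodendrocyte lineage rose, against 8.42% of all. Tubb3, the 1 neuron marker tested, rose as well (log2 fold change 1.38, adjusted p = 0.000743). It made up most of the neuron sum, with means of 5.24 CPM in GSK-J4 and 13.9 CPM with LPS. The other 3 neuron markers had too few counts to be tested. Of these, Rbfox3 and Syt1 had lower mean CPM with LPS, and Snap25 had higher. Each of these 4 sums and the Rn45s share kept the groups apart, and a 2-sided exact permutation test gave p = 0.1 for each, the smallest value that 3 libraries against 3 allow. Markers of fibroblasts or vessels ranged from 90.9 to 296 CPM in GSK-J4 and from 155 to 480 CPM in LPS + GSK-J4 (exact permutation p = 0.3). By the test used for all genes, 1 of the 7 tested markers of this set rose, against 8.42% of all. This was Cdh5 (log2 fold change 1.504, adjusted p = 0.00312), and the other 6 did not pass. The B cell marker Ms4a1 had no counts, and the T cell marker Cd3e had 1 count in 1 library.

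In the presence of GSK-J4, LPS raised 3 of the 10 receptor genes and lowered none at the threshold, although some alternatives gave 1 to 3 that fell. Cd40 rose 7.14-fold in mean CPM, Tnfrsf1b 2.42-fold and Tnfrsf12a 2.03-fold, whereas Tnfrsf1a and Ltbr overlapped between the groups. Of the 10 genes, 8 had enough counts to be tested. The edgeR quasi-likelihood test was run on all 10133 genes that passed its filter on low counts, with Benjamini-Hochberg adjustment over all of them. A gene that passed an adjusted p of 0.01 is said to have risen or fallen, and one that also reached a log2 fold change of 1.5 in either direction is called up- or down-regulated. By these rules 1 of the 8 was up-regulated (2.95% of all genes tested) and 0 were down-regulated (0.809% of all), while 3 had risen (8.42% of all) and 0 had fallen (5.46% of all). At an unadjusted p of 0.05, 3 were higher and 2 lower by edgeR. The share of all genes at that p was not counted, so these numbers have no background beside them. DESeq2 likewise called 0 of the 8 fallen at its adjusted p. The median log2 fold change was 0.24 over the 8 and -0.00 over all genes tested, and the 8 had log2 fold changes from -0.50 to 2.76. In bulk RNA, fewer cells of a type and less RNA per cell cannot be told apart, here and in all that follows. Scaled by total counts in place of TMM, 124 genes were up- and 354 down-regulated, against 299 and 82 with TMM, and the median of all genes moved by -0.57. On that scale Cd40 was still the up-regulated gene of the 8, Tnfrsf1b rose, Tnfrsf12a did not pass, and Tnfrsf21, Tnfrsf26 and Ltbr fell.

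**Figure D1:**
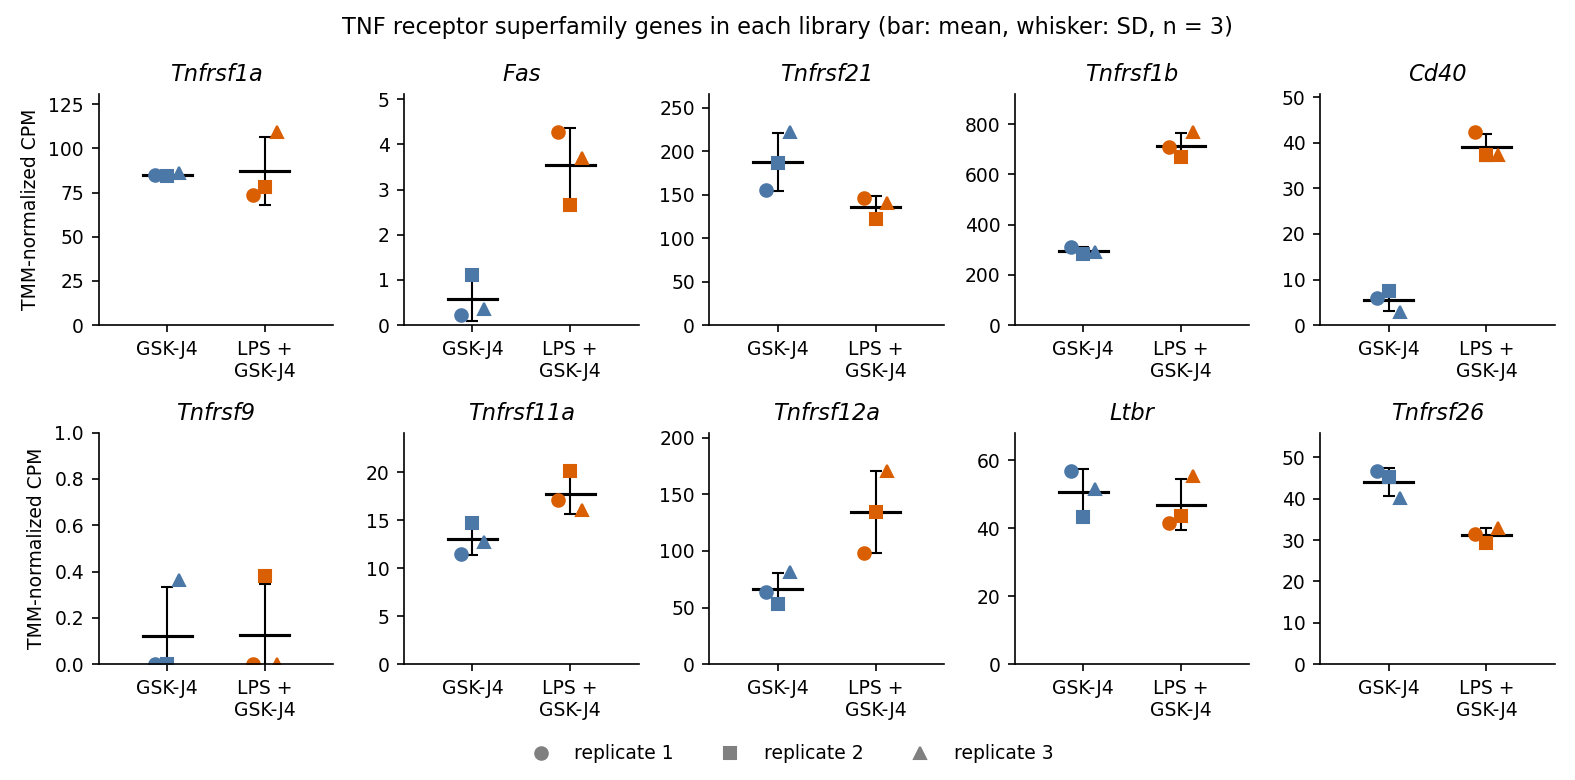
TMM-normalized CPM of the 10 TNF receptor superfamily genes in each library, with GSK-J4 in blue and LPS + GSK-J4 in orange, the marker shape giving the replicate, the bar the mean and the whisker the SD (n = 3), on linear axes of their own for each gene. The groups lie apart for Cd40 (2.92 to 7.59 against 37.2 to 42.3 CPM) and Tnfrsf1b (283 to 311 against 669 to 769 CPM). They also lie apart for Fas, Tnfrsf11a and Tnfrsf12a (higher with LPS) and for Tnfrsf21 and Tnfrsf26 (lower with LPS). For Tnfrsf1a, Ltbr and Tnfrsf9 they overlap. Of all genes tested, 19.8% had every LPS library above every GSK-J4 library and 18.4% had every one below.

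**Figure D2:**
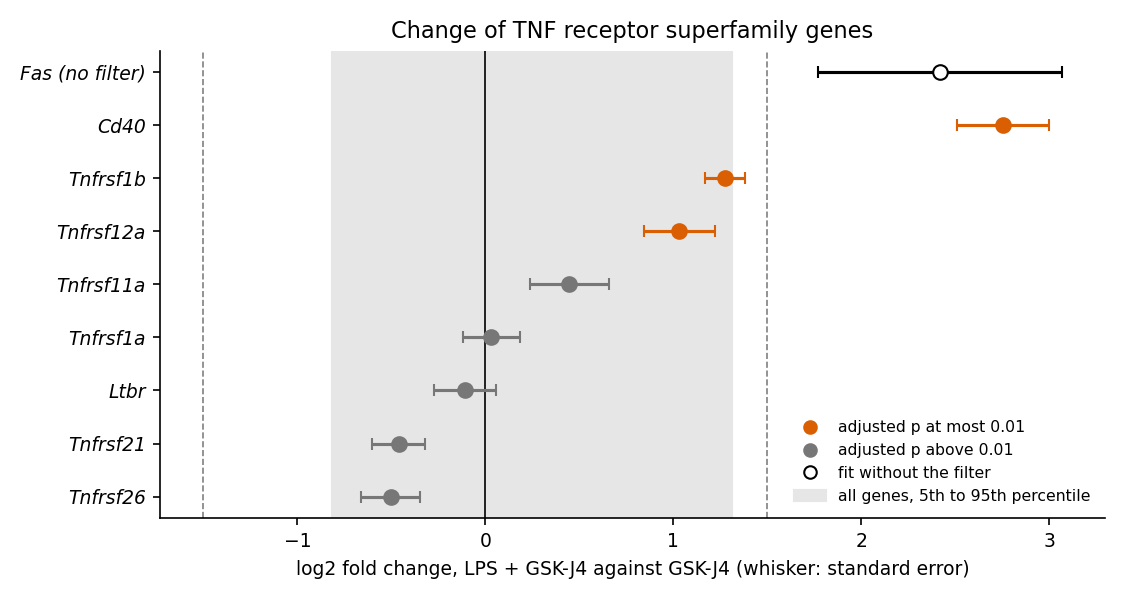
Fitted log2 fold change of LPS + GSK-J4 against GSK-J4 for the 8 tested receptor genes (filled dots, whiskers the standard error) and for Fas from the fit without the filter on low counts (open dot), beside the range from the 5th to the 95th percentile of all genes tested (grey) and the fold threshold (dashed). Of the tested genes, Cd40 at 2.76 alone passed the dashed line at 1.5 and lay above the grey range, whose upper end is 1.31.

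Among receptors with a death domain, Tnfrsf1a, the widely expressed receptor for soluble TNF (mm10 chromosome 6, 125349362 to 125362484), was at 84.7, 84.4 and 86.1 CPM in GSK-J4 replicates 1 to 3. In the LPS + GSK-J4 libraries it was at 73.8, 78.2 and 109 CPM. The GSK-J4 libraries thus lay close together, inside the wider range of the LPS libraries, of which replicate 3 was the highest. The log2 fold change was 0.03 (95% interval -0.26 to 0.33, adjusted p = 0.908), and its sign turned in 6 of the alternatives, so no direction is given.

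Tnfrsf21, a death-domain receptor known from neurons and T cells (chromosome 17, 43016555 to 43089189), was at 156, 186 and 222 CPM in GSK-J4. It was at 146, 122 and 140 CPM with LPS. Every LPS library was below every GSK-J4 library, as for 18.4% of all genes tested, but the lowest GSK-J4 library was close to the highest LPS library. The log2 fold change of -0.46 (standard error 0.14) had an adjusted p of 0.0254 by edgeR and did not pass 0.01, but passed in 3 of the alternatives, among them the fit without the filter on low counts (adjusted p = 0.00172). Its promoter window above holds 1 GC box.

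Fas, the receptor for Fas ligand that recruits FADD and caspase-8 (chromosome 19, 34290666 to 34327772), was close to the limit of detection. It had 1, 5 and 1 counts in GSK-J4 and 11, 7 and 9 counts with LPS, or 0.235, 1.12 and 0.365 CPM against 4.27, 2.66 and 3.70 CPM. The lowest LPS library was above the highest GSK-J4 library, as for 19.8% of all genes tested. Summed over libraries and scaled by their sizes, 7 against 27 counts are a ratio of 5.79, with an exact 95% interval of 2.46 to 15.8 that covers counting error only. The gene did not pass the filter and has no value in the edgeR test above. Without the filter its log2 fold change was 2.42 (standard error 0.65, adjusted p = 0.00236), while the DESeq2 Wald test gave 2.52 with an adjusted p of 0.0375, so the call depended on the tool.

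Of the receptors without a death domain, Tnfrsf1b, the TNF receptor best engaged by membrane-bound TNF (chromosome 4, 145213463 to 145246870), was at 311, 283 and 293 CPM in GSK-J4. After addition of LPS, the libraries were at 708, 669 and 769 CPM. Every LPS library was above every GSK-J4 library, as for 19.8% of all genes tested. The lowest LPS library was more than 2 times the highest GSK-J4 library, and replicates differed little within each group. Mean levels were 295 ± 14.0 and 715 ± 50.2 CPM (SD, n = 3). The log2 fold change was 1.28 with a standard error of 0.11 (adjusted p = 3.02e-07), so it rose without reaching the fold threshold. It lay at the 94.5th percentile of the log2 fold changes of all genes tested. Its promoter window above holds the interferon response element and 2 GC boxes.

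The pair of TNF receptors therefore stood in different proportion in the groups. The ratio of Tnfrsf1b counts to Tnfrsf1a counts within a library, which no scaling between libraries can alter, was 3.66, 3.35 and 3.40 in GSK-J4. With LPS it was 9.60, 8.55 and 7.03. All 3 LPS libraries were above all 3 GSK-J4 libraries, and the means of 3.47 ± 0.168 and 8.40 ± 1.29 (SD, n = 3) differed with an exact permutation p of 0.1, the smallest possible here. Since the genes differ in length, the ratio is one of counts and not of transcripts.

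**Figure D3:**
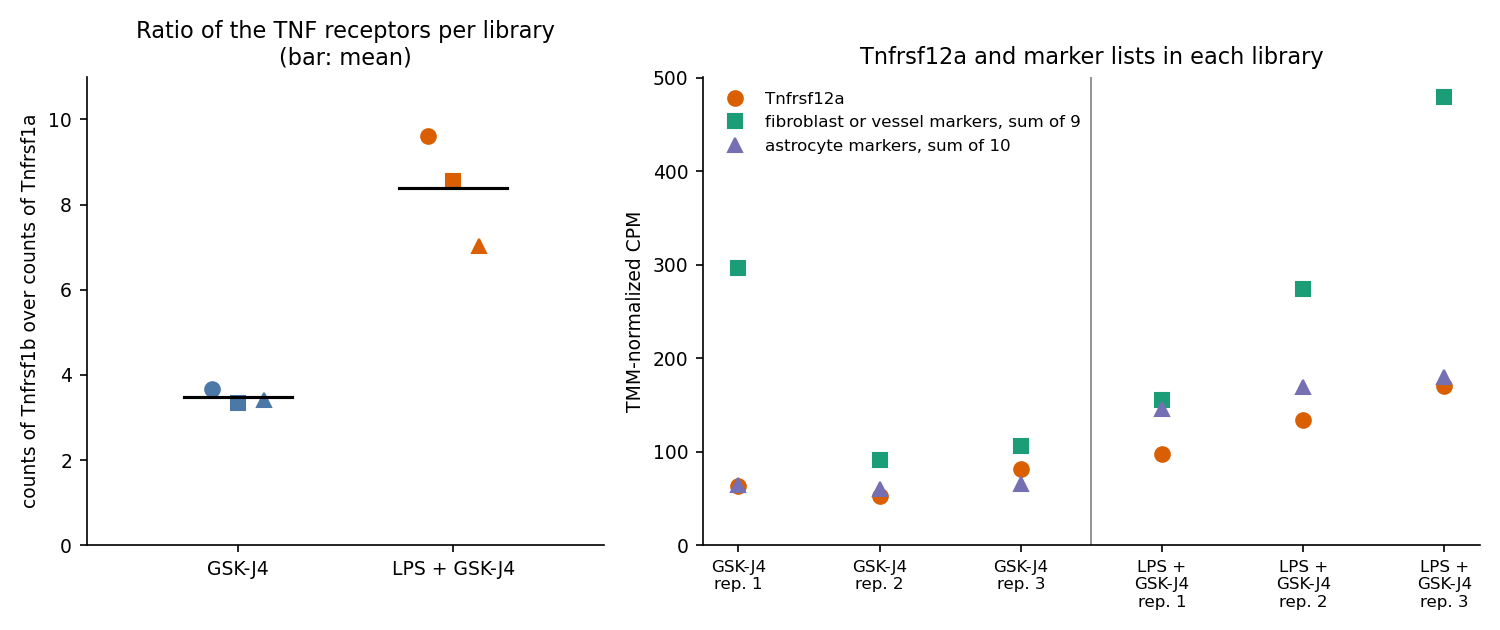
Left, counts of Tnfrsf1b over counts of Tnfrsf1a in each library (marker shape the replicate, bar the mean), 3.35 to 3.66 in GSK-J4 and 7.03 to 9.60 in LPS + GSK-J4. Right, Tnfrsf12a (circles), the sum of 9 fibroblast or vessel markers (squares) and the sum of 10 astrocyte markers (triangles) as TMM-normalized CPM in each library. In the 3 LPS libraries the 3 quantities stand in the same order of libraries, which Tnfrsf1a and Ltbr have too. In GSK-J4 the triangles again keep the order of Tnfrsf12a (64.1, 60.3 and 65.7 against 63.8, 53.1 and 81.3 CPM) while the squares do not.

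Cd40, the costimulatory receptor of antigen-presenting cells (chromosome 2, 165055627 to 165072948), was at 5.87, 7.59 and 2.92 CPM in GSK-J4, from 25, 34 and 8 counts. It was at 42.3, 37.2 and 37.4 CPM with LPS, from 109, 98 and 91 counts. The GSK-J4 libraries were low and differed by more than 2-fold among themselves. Every LPS library was far above them, and 19.8% of all genes tested had every LPS library above every GSK-J4 library. Its log2 fold change was 2.76 with a standard error of 0.24 (adjusted p = 5.40e-07). This was at the 99.3th percentile of all genes tested and made Cd40 the up-regulated gene of the 8. By root mean square difference of mean-centred log2 CPM over the 6 libraries, the tested genes outside the 10 with the pattern most like it were Htr2a at 0.156 (log2 fold change 3.96) and Samd9l at 0.191 (log2 fold change 2.64). Htr2a encodes a serotonin receptor, and its mean in GSK-J4 was 0.529 CPM, below the floor of 3 counts, so its fold depends on the prior count.

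Tnfrsf12a, the receptor for the ligand TWEAK (chromosome 17, 23675445 to 23677468), was at 63.8, 53.1 and 81.3 CPM in GSK-J4. With LPS it was at 97.8, 134 and 170 CPM. The groups did not overlap, as every LPS library was above every GSK-J4 library, a pattern that 19.8% of all genes tested had. Its log2 fold change, 1.03 with a standard error of 0.19 (adjusted p = 0.000832), was past the test but under the fold threshold. With total counts it was 0.48 and no longer passed (adjusted p = 0.0313). The receptor is known from fibroblasts and astrocytes too. The LPS libraries stood in the same order for Tnfrsf12a as for the summed fibroblast or vessel markers (155, 274 and 480 CPM) and the summed astrocyte markers (146, 170 and 180 CPM). This order was not particular to Tnfrsf12a, as Tnfrsf1a (73.8, 78.2 and 109 CPM) and Ltbr (41.5, 43.7 and 55.5 CPM) had it too. The share of all genes with this order was not counted. In GSK-J4 the astrocyte markers (64.1, 60.3 and 65.7 CPM) also stood in the order of Tnfrsf12a, whereas the fibroblast or vessel markers did not and were highest in replicate 1 (296 CPM). The part of either marker set in the rise was not tested.

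Tnfrsf11a, known as RANK, the receptor that drives osteoclast formation from myeloid precursors (chromosome 1, 105780718 to 105847981), was at 11.5, 14.7 and 12.8 CPM in GSK-J4. With LPS it was at 17.1, 20.1 and 16.0 CPM. Every LPS library was above every GSK-J4 library, as for 19.8% of all genes tested, but the highest GSK-J4 and the lowest LPS library were close. Its log2 fold change, 0.45 with a standard error of 0.21 (adjusted p = 0.144), did not pass the test. The normal 95% interval of 0.03 to 0.86 is narrower than the quasi-likelihood test allows, which gave an unadjusted p of 0.05004. The log2 fold change was -0.12 when libraries were scaled by total counts.

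Ltbr, the lymphotoxin β receptor that feeds the alternative NF-κB pathway (chromosome 6, 125306571 to 125313885), was at 56.8, 43.3 and 51.4 CPM in GSK-J4. Its levels with LPS were 41.5, 43.7 and 55.5 CPM. The groups overlapped over most of their range, and the log2 fold change was -0.11 (95% interval -0.43 to 0.21, adjusted p = 0.690). Ltbr and Tnfrsf1a are neighbours on chromosome 6, 35476 bases apart, and both overlapped between the groups.

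Tnfrsf9, the costimulatory receptor known from activated T cells (chromosome 4, 150914562 to 150946102), had 0, 0 and 1 counts in GSK-J4 and 0, 1 and 0 counts with LPS. It was thus under the floor in all 6 libraries, and neither a level nor a fold can be given at this depth. It overlaps Camta1 on the other strand, and strand was kept in the counts used.

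Tnfrsf26, of a cluster of mouse receptor genes with Tnfrsf22 and Tnfrsf23 on chromosome 7 (143607659 to 143628722), was at 46.7, 45.3 and 40.1 CPM in GSK-J4. The LPS libraries were at 31.5, 29.2 and 32.9 CPM. Every LPS library was below every GSK-J4 library, as for 18.4% of all genes tested, and the replicates of each group were close. The log2 fold change of -0.50 (standard error 0.15) had an adjusted p of 0.0262 and did not pass 0.01, but passed in 3 of the alternatives, among them the fit without replicate 3 of both groups (adjusted p = 0.00441). Its neighbours Tnfrsf22, 6083 bases away, and Tnfrsf23 had log2 fold changes of 0.19 (adjusted p = 0.737) and 0.17 (adjusted p = 0.518). Of the sequence of the 10 genes, 0 to 0.573% of 50-base stretches occurred in another gene, and Tnfrsf26 had none of these.

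Levels can be set against each other between genes only per length, here as CPM per kilobase of exon. In GSK-J4, Tnfrsf1b was the most abundant of the 10 (77.4 ± 3.66 CPM per kilobase, SD, n = 3), ahead of Tnfrsf21 (45.7 ± 8.06), Tnfrsf12a (34.2 ± 7.37) and Tnfrsf1a (32.8 ± 0.343). Ltbr (21.5 ± 2.88) and Tnfrsf26 (13.7 ± 1.08) followed, and then Tnfrsf11a (2.17 ± 0.273), Cd40 (1.60 ± 0.694) and Fas (0.277 ± 0.231). The libraries of Tnfrsf21 and Tnfrsf12a, of Tnfrsf12a and Tnfrsf1a, of Tnfrsf11a and Cd40, and of Fas and Tnfrsf9 overlapped, so these neighbours in the order are not distinguished.

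With LPS, Tnfrsf1b was again the most abundant (187 ± 13.2 CPM per kilobase), and Tnfrsf12a was next (69.5 ± 18.8). Tnfrsf1a (33.6 ± 7.47) and Tnfrsf21 (33.1 ± 3.10) overlapped, and Ltbr was at 19.9 ± 3.18. Cd40 stood at 11.4 ± 0.853, above Tnfrsf26 (9.69 ± 0.569) and Tnfrsf11a (2.96 ± 0.355), whereas in GSK-J4 it had been below Tnfrsf26 and not distinguished from Tnfrsf11a. Fas was at 1.72 ± 0.397. Per kilobase of the longest transcript, the level of Tnfrsf12a with LPS was 136 CPM and its place did not change, but in GSK-J4 its mean of 67.2 CPM was above that of Tnfrsf21 (51.8 CPM).

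**Figure D4:**
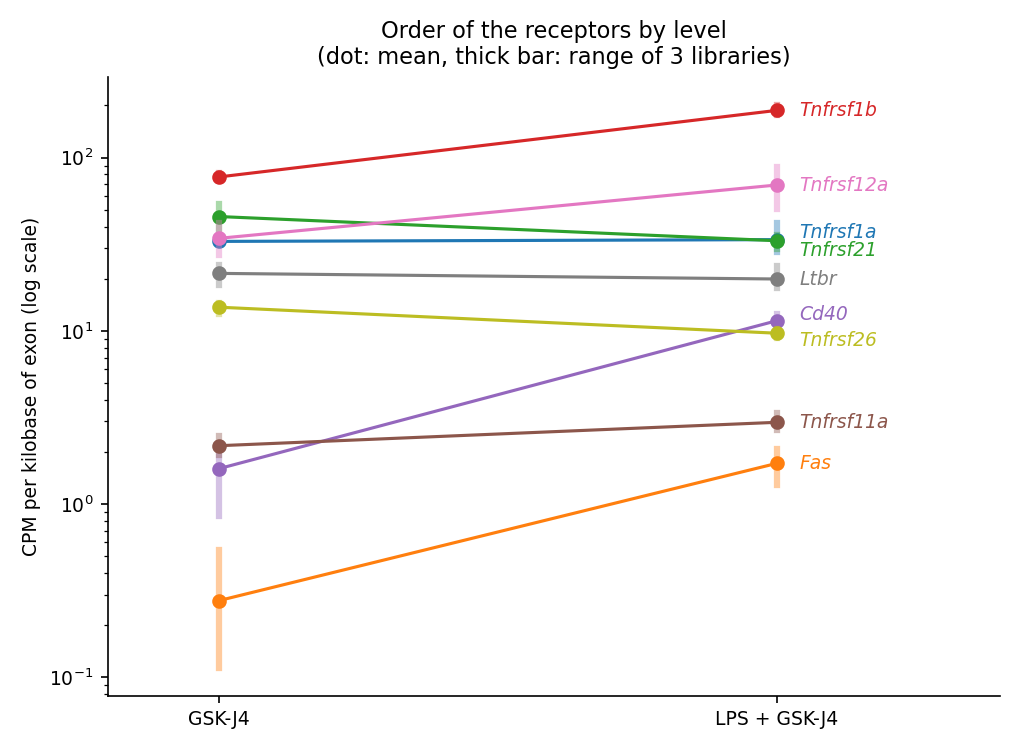
Level of 9 of the receptor genes as CPM per kilobase of exon (log axis) in GSK-J4 and LPS + GSK-J4, the dot giving the mean and the thick bar the range of 3 libraries; Tnfrsf9 is left out because its libraries are at 0 or 1 count. Tnfrsf1b is at the top in both groups (77.4 and 187), and the line of Cd40 crosses those of Tnfrsf11a and Tnfrsf26 (1.60 to 11.4).

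Of 9 genes for ligands of these receptors, 3 were tested, and 2 of them were up-regulated, against 2.95% of all genes tested. Tnf, the ligand of Tnfrsf1a and Tnfrsf1b, went from 34.2 ± 5.68 to 4275 ± 234 CPM (SD, n = 3), which is 6.95 on the log2 scale (adjusted p = 2.78e-14). Tnfsf9, the ligand of Tnfrsf9, went from 5.62 ± 1.07 to 272 ± 38.4 CPM (log2 fold change 5.59, adjusted p = 3.95e-12), whereas its receptor was under the floor. Tnfsf12, which encodes TWEAK, the ligand of Tnfrsf12a, averaged 13.7 CPM without LPS and had a log2 fold change of -0.77 with an adjusted p of 0.0303 that did not pass. Cd40lg, Fasl, Tnfsf11, Lta, Ltb and Tnfsf14 did not pass the filter, and Tnfsf11, which encodes the ligand of Tnfrsf11a, had no counts in any library.

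Of 18 other genes of the receptor superfamily, 8 were tested, and Tnfrsf19, a receptor known from the embryonic nervous system, was up-regulated from 1.39 ± 0.593 to 6.38 ± 1.74 CPM (SD, n = 3). Its log2 fold change was 2.09 (adjusted p = 0.00162), and without LPS + GSK-J4 replicate 2 it was 1.85 with an adjusted p of 0.0199, so the call rested on that library and the list then held 0 up-regulated genes. Without GSK-J4 replicate 1 the list held 3. Eda2r, a receptor for ectodysplasin, rose (log2 fold change 1.17, adjusted p = 0.00537). Thus 2 of the 8 rose, against 8.42% of all genes tested, and 1 was up-regulated, against 2.95%. The other 6 tested did not pass, among them the TRAIL receptor Tnfrsf10b, the decoy receptor Tnfrsf11b and the neurotrophin receptor Ngfr. Tnfrsf17, Tnfrsf18, Cd27 and Edar, known from lymphocytes or skin, had no counts in any library. The 8 tested genes had log2 fold changes from 0.17 to 2.09, with a median of 1.06. The filter on low counts left out the other 10 of the 18. Tnfrsf19 had 10 counts or more only with LPS (13, 22 and 14 counts, against 8, 7 and 2 in GSK-J4). This median therefore does not stand for all 18 genes, and the part of the filter in it was not tested.

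Inside the cell, all 17 adaptor genes on the list were tested and 1 was up-regulated, against 2.95% of all genes tested. This was Traf1, the adaptor that binds Tnfrsf1b and Cd40 together with TRAF2, at 2.33 ± 1.07 and 20.7 ± 3.63 CPM (log2 fold change 3.08, adjusted p = 2.17e-06). Tank (log2 fold change 0.89, adjusted p = 0.00106) and Birc3 (log2 fold change 0.74, adjusted p = 0.00755), a ubiquitin ligase of the TNF receptor complex, rose. The kinase gene Ripk1 fell, with a log2 fold change of -0.56 (adjusted p = 0.00920). In all, 3 of the 17 rose and 1 fell, against 8.42% and 5.46% of all genes tested. The other 13, among them Traf2, Traf3, Tradd and Fadd, did not pass, and the median of the list was 0.12.

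Of 11 genes of the NF-κB arm, 1 was lower at an unadjusted p of 0.05, for which no share of all genes was counted. By the adjusted p of edgeR, 0 fell, against 5.46% of all genes tested. In the other direction 6 rose, of which 3 were up-regulated, against 8.42% and 2.95% of all. The 3 were Tnfaip3 (log2 fold change 3.61, adjusted p = 1.59e-11), Nfkbia (3.13, adjusted p = 1.09e-10) and Nfkb1 (1.54, adjusted p = 1.20e-06), of which the first pair are known as brakes on NF-κB. The call of Nfkb1 lay at the fold threshold: its log2 fold change was 1.48 without GSK-J4 replicate 2, 1.39 without LPS + GSK-J4 replicate 3, 1.49 by DESeq2 and 0.98 with total counts, and the list then held 2 up-regulated genes. Nfkb2, Rel and Relb rose by log2 fold changes of 1.11, 1.21 and 0.69, under the fold threshold. The kinase subunits Ikbkb, Ikbkg and Chuk and the subunit Rela did not pass. The median of the list was 0.69, against -0.00 over all genes tested.

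Of 9 genes of the death arm, 8 were tested. Of the 8, 2 rose and 1 of these was up-regulated, against 8.42% and 2.95% of all genes tested. Cflar, the inhibitor of caspase-8 at death receptors, was up-regulated from 97.6 ± 13.3 to 347 ± 35.3 CPM (log2 fold change 1.83, adjusted p = 4.57e-08), and Daxx rose (log2 fold change 0.89, adjusted p = 0.00667). Casp8 and Bid, with log2 fold changes of -0.15 and -0.01, did not pass. Mlkl did not pass the filter.

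**Figure D5:**
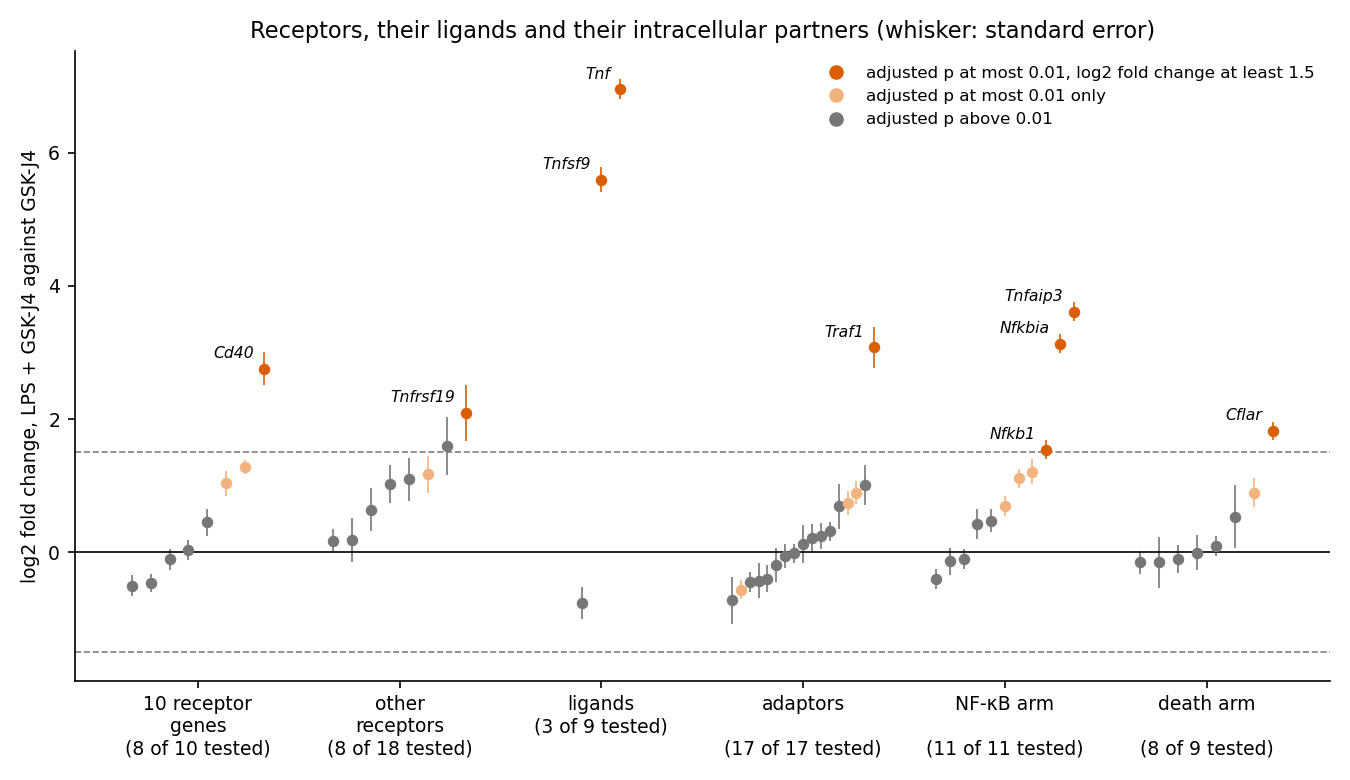
Fitted log2 fold change of LPS + GSK-J4 against GSK-J4 for each tested gene of the 10 receptor genes and of the lists of other receptors, ligands, adaptors, NF-κB arm and death arm, each dot a gene and each whisker its standard error, with the fold threshold dashed and genes in order of fold change within a list. Up-regulated genes (dark orange) number 1, 1, 2, 1, 3 and 1 in that order, and no gene lies below the lower dashed line. Of all genes tested, 2.95% were up-regulated.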

How the data were processed

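RNA-seq libraries of PM in 2 groups of 3 were analysed, grouped by the titles in the labels. As the methods and the labels state, rRNA-depleted RNA was made into directional libraries and sequenced from both ends, reads were trimmed with Trimmomatic 0.33 and aligned to mm10 with STAR 2.5.1, and the authors deposited its raw counts of fragments per gene, not normalized, with a column for each strand and one for both. The annotation used for counting is not given in the sources used here. The reverse-strand counts were used, as the kit requires. Between 74.0 and 78.0% of the fragments in the tables were in the 4 lines that name no gene and were left out.

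Counts were tested in R 4.3.3 with edgeR 4.0.16 and limma 3.58.1 (TMM, filterByExpr at 10 counts and 15 in total, robust quasi-likelihood test without covariates, 2-sided) on all 6 libraries, and the Benjamini-Hochberg adjustment covered all 10133 genes tested. The coefficient of biological variation was 0.133. Standard errors were taken from the fold change and the F statistic, and 95% intervals are normal ones, which are narrower than the F test allows. The thresholds were the p of 0.01 and log2 fold change of 1.5 that the study used, with the p taken as adjusted. The alternatives were DESeq2 1.42.0, its size factors, other filters and thresholds, unstranded counts, 3 ribosomal features removed, the replicate number as a block and each library left out, and the scaling by total counts and the removal of replicate 3 of both groups were added after seeing the data. The fits were tested on simulated data. Python 3.11.15 (pandas 2.3.3, scipy 1.17.1, matplotlib 3.10.9) served for tables, exact tests and figures.

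All 10 members were named. Of the other lists, genes past both thresholds were named, with others as examples chosen after their values were seen. For a member past both thresholds, the 2 genes with the most similar pattern were named, with 1 CPM added before the log2. The members and lists were chosen with earlier results of these data known. The study describes the PM samples of each treatment as independent biological replicates, and a figure legend speaks of independent PM experiments. It does not say whether these came from separate cultures. The p-values measure the spread between these samples, and how much of it is technical is not known. Positions and lengths are from the GENCODE annotation of mm10. Some genes of the lists are not reported here by name.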

Additional observations from a re-analysis of the deposited data

Results flagged for a closer look

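The antisense counts of Tnfrsf8, another receptor gene of the superfamily (mm10 chromosome 4, 145267137 to 145315164, minus strand), stood out among data that the comparisons above do not use. They numbered 2, 2 and 0 in GSK-J4 replicates 1 to 3 and 21, 23 and 24 in LPS + GSK-J4 replicates 1 to 3, a total of 4 and 68. The sense counts of the gene were 3, 1 and 0 and then 4, 2 and 4. Every LPS library therefore held more antisense than sense counts, and the GENCODE annotation has no gene on the other strand there. The gene next to it, 20266 bases away on the same strand, is Tnfrsf1b. Among the 10 receptor genes, antisense counts reached at most 10 in a library. Where strand was ignored, 2 of the other receptor genes were up-regulated in place of 1.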

How the results depend on the processing

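Cd40 and Tnfrsf1b kept their direction and passed the adjusted p in every alternative that gave a value. Tnfrsf12a did so except with total counts and no TMM factor (log2 fold change 0.48, adjusted p = 0.0313). That scaling moved the median of all genes by -0.57, the number of up-regulated genes from 299 to 124 and that of down-regulated genes from 82 to 354, and the median of the 8 receptor genes to -0.33. It left 3 receptor genes fallen (Tnfrsf21, Tnfrsf26 and Ltbr) and turned Tnfrsf11a to -0.12 and Tnfrsf1a to -0.53. Tnfrsf1a was also -0.016 with the size factors of DESeq2, -0.016 in its Wald test, -0.022 without the filter, -0.16 without LPS + GSK-J4 replicate 3 and -0.15 without replicate 3 of both groups.

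The number of up-regulated receptor genes was 1, but 2 without the filter on low counts (Fas added) and 0 when at least 10 counts were required in every library, because Cd40 had 8 counts in 1 library and was not tested. It was 3 at an adjusted p of 0.05 with a log2 fold change of 1, and 3 with no limit on the fold change. For all genes these gave 176 up-regulated with the stricter filter, 844 up- and 285 down-regulated with the looser thresholds, and 853 and 553 with no fold limit. The 8 up-regulated genes of the other 5 lists became 15 under each of the last 2 thresholds. The receptor genes that fell numbered 1 without the filter (Tnfrsf21, adjusted p = 0.00172) and 1 without replicate 3 of both groups (Tnfrsf26, adjusted p = 0.00441).

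In the fit with a replicate block, 306 genes were up- and 90 down-regulated (396 against 381 in all), 1 receptor gene was up-regulated and 2 fell, Tnfrsf21 (adjusted p = 0.000747) and Tnfrsf26 (adjusted p = 0.00570). Libraries with the same number had deviations correlated across genes at -0.01, 0.12 and 0.31, and not every library correlated best with its own number. The labels do not say what the number marks. With 3 libraries in a group, these correlations cannot settle whether the samples were paired.

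Leaving out each library in turn gave 1 up-regulated and 3 risen receptor genes each time, 271 to 374 up-regulated and 79 to 100 down-regulated genes, 7 to 10 genes of the other lists, a median of 0.17 to 0.30 for the receptor genes, and -0.16 to 0.14 for Tnfrsf1a. Low counts limit Fas and Tnfrsf9, and the larger Rn45s share with LPS limits low genes in that group. With at least 10 counts in every library the adaptor list held 0 up-regulated genes, and with total counts the death arm held 0.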
